A study of Homo sapiens with 10 samples.

Results

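The 9 genes described here are central to antigen presentation by MHC class I in human cells: HLA-B, HLA-C, HLA-E, B2M, TAP1, TAP2, PSMB8, PSMB9 and NLRC5. They were taken by symbol from the 58884 genes in the count tables, using the gene model on the main chromosome for each. PolyA RNA had been sequenced from HCT116 cells, a human colorectal carcinoma line with the genotype label WT (6 libraries), and from DNMT1 KO cells (4 libraries), an HCT116 derivative carrying targeted alleles of DNMT1, whose product copies DNA methylation onto new strands at replication. The DNMT1 KO cells still make a shortened DNMT1 at a reduced level, so they are a hypomorph, and they are 1 derived line. Neither line received an agent, and both were grown in the same medium. The comparison asks whether RNA of the class I genes differed between DNMT1 KO and HCT116 cells. For 7 of the 9 genes the tables could not answer it, because they hold almost no reads there.

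MHC class I molecules show short peptides from inside the cell to CD8+ T cells and natural killer cells. Proteasomes cut proteins into peptides, and in cells exposed to interferon the subunits PSMB8 and PSMB9 replace standard catalytic subunits to give the immunoproteasome. TAP1 and TAP2 form the transporter that carries peptides into the endoplasmic reticulum, where they are loaded onto a heavy chain (HLA-B, HLA-C or HLA-E) bound to beta-2-microglobulin, the product of B2M. NLRC5 is the transactivator that acts on the promoters of these genes. DNA methylation of the NLRC5 promoter and of the class I genes is a known route by which tumour cells lose class I expression.

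The libraries held 35418732 to 85991812 counted reads in HCT116 and 26700853 to 55732013 in DNMT1 KO. DNMT1 itself, the check of the genotype labels, was at 89.8 to 263 CPM (reads counted per 1e+06 reads, with totals scaled by the trimmed mean of M values, TMM) in HCT116 and at 14.1, 19.9, 21.5 and 22.3 CPM in the 4 DNMT1 KO libraries, a log2 fold change of -2.97 (standard error, SE, 0.33, edgeR quasi-likelihood test, Benjamini-Hochberg adjusted p = 1.7e-05). Of the 7 colorectal epithelium markers, EPCAM was detected in every library, at 245 to 415 CPM in HCT116 and 59.4 to 88.3 CPM in DNMT1 KO. It was lower in DNMT1 KO (log2 fold change -2.08, SE 0.26, edgeR adjusted p = 4.0e-05). By the thresholds given below, 4 of the 7 were lower in DNMT1 KO, 1 was higher and 2 were neither. The higher one, VIL1, was at 0 to 0.0557 CPM in HCT116 and 0.505 to 0.817 CPM in DNMT1 KO. In bulk RNA fewer cells of a type and less RNA per cell cannot be told apart. The summed level of 7 immune cell markers, PTPRC and CD3E among them, was 0.0902 to 0.642 CPM in HCT116 and 0.404 to 0.667 CPM in DNMT1 KO, and 0 of these 7 were abundant enough to test. The labels give 4 batches. HCT116 replicate 1 and DNMT1 KO replicate 1 form batch 1, replicates 2 and 3 of both groups form batch 2, DNMT1 KO replicate 4 is alone in batch 3, and HCT116 replicates 7 to 9 form batch 4. The study's text describes its replicates as separately grown cultures of the 2 lines, so p-values measure the spread between cultures.

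The heavy chain genes were almost without reads. HLA-B (ENSG00000234745, hg38 chr6:31269491-31357188, minus strand) had 1 read in HCT116 replicate 3 and 2 reads in each of DNMT1 KO replicates 1 and 2, and 0 in the other 7 libraries. HLA-C (ENSG00000204525, chr6:31268749-31272130, minus strand) had 2 reads in HCT116 replicate 3 and 0 in all others. HLA-E (ENSG00000204592, chr6:30489509-30494194, plus strand), which encodes the heavy chain read by NKG2A receptors of natural killer cells, was listed at 0 in all 10 libraries.

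The transporter and immunoproteasome genes were listed at 0 in all 10 libraries as well. These are TAP1 (ENSG00000168394, chr6:32845209-32853978, minus strand), TAP2 (ENSG00000204267, chr6:32821833-32838770, minus strand), PSMB8 (ENSG00000204264, chr6:32840717-32844703, minus strand) and PSMB9 (ENSG00000240065, chr6:32844136-32859851, plus strand). In all, 5 of the 9 genes were at 0 in every library and 7 had fewer than 10 reads in total, and these 7 are the members that lie in the MHC on chromosome 6. By counting error alone, a count of 0 in a library allows at most 3 reads, which is 0.0349 to 0.104 CPM depending on the library. This takes each read as independent. Low counts were mostly even in every library but DNMT1 KO replicate 4, so in those libraries the limit can be higher. That limit holds for reads that passed the authors' processing and is no limit on expression. B2M and NLRC5, on other chromosomes, had 611 and 3432 reads over the 10 libraries.

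How far the exons of each gene can be told apart by a read was measured on the hg38 assembly, which holds 261 alternate haplotype sequences beside the main chromosomes. Every exon of every gene in the tables was read in windows of 50 bases, the length of the sequencing reads, at steps of 10 bases, and each window was looked up for exact copies. The authors had aligned read pairs to hg38 with Bowtie2, without a splice-aware step, and had removed reads with a mapping quality below 10. Bowtie2 gives a low mapping quality to a read that matches several places equally well. Whether their index held the alternate haplotypes is not given in the sources used here.

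Among the main chromosomes the members were nearly unique, with 92.9% to 100% of their exon windows found at 1 place. With the alternate haplotypes included, every window of HLA-E, TAP1, PSMB8 and PSMB9 had at least 1 exact copy there, as did 99.1% of TAP2 windows, 91.7% of B2M windows, 90.9% of HLA-C windows and 73.2% of HLA-B windows. The median number of alternate copies per window was 7 for TAP1, TAP2, PSMB8 and PSMB9, 6 for HLA-E, 2 for HLA-B, and 1 for HLA-C and B2M. No window of NLRC5 was copied. Exons shared with other genes on the main chromosome were a smaller part of these genes, at 32.2% of exon bases in TAP2, 18.9% in HLA-B, 17.6% in PSMB8, 9.49% in TAP1, 5.21% in PSMB9, 1.40% in HLA-C and 0% in HLA-E.

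**Figure D1:**
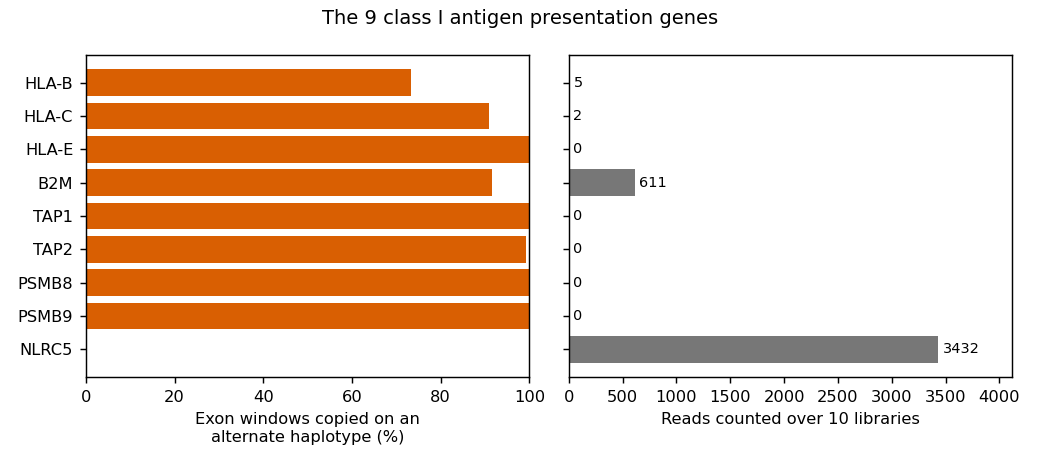
Share of 50-base exon windows with an exact copy on an hg38 alternate haplotype (left, %) and reads counted over the 10 libraries (right) for each of the 9 genes. NLRC5, with no copied window, has 3432 reads, B2M has 611, and the 7 MHC genes have 5 or fewer.

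The coding sequences show the same thing at the level of 1 read. For each gene the 50 bases in the middle of the longest coding exon of its canonical transcript are printed, 5′ to 3′ on the coding strand, from hg38. Capitals mark bases at which the closest stretch on at least 1 alternate haplotype differs. The closest stretch was sought over the whole of each alternate sequence of that chromosome, so it can lie in a related gene. A capital is therefore not always a difference between alleles of the gene named.
HLA-B, coding exon 3, chr6:31356280-31356329: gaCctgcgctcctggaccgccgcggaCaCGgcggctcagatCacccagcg
HLA-C, coding exon 3, chr6:31271186-31271235: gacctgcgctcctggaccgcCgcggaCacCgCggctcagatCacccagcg
HLA-E, coding exon 3, chr6:30490353-30490402: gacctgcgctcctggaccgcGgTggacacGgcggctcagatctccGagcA
TAP1, coding exon 1, chr6:32853313-32853362: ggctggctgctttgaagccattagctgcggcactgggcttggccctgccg
TAP2, coding exon 2, chr6:32837962-32838011: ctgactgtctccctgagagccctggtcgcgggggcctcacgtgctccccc
PSMB8, coding exon 5, chr6:32841608-32841657: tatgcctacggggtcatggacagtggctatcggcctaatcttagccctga
PSMB9, coding exon 5, chr6:32858410-32858459: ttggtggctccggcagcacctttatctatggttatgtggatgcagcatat
B2M, coding exon 2, chr15:44715537-44715586: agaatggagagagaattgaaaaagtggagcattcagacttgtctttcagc
NLRC5, coding exon 6, chr16:57026168-57026217: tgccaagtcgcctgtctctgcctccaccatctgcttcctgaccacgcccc
The TAP1, TAP2, PSMB8 and PSMB9 stretches were identical on 7 alternate haplotypes, so a read from them has 8 equal places in the assembly. The HLA-E stretch was identical on 6 of 7. The heavy chain genes HLA-B and HLA-C, which are the polymorphic ones, were identical on 2 and 1 of 7, with at most 3 and 2 differences on the others. The B2M stretch was identical on 1 haplotype, and NLRC5 had no stretch within 10 differences on any.

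Genes around the members had the same pattern. Between the outermost protein-coding genes near HLA-B whose every window was copied (chr6:28525925-33418317), 165 of 177 protein-coding genes were at 0 in all 10 libraries (93.2%), 172 had fewer than 10 reads, and 0 were abundant enough to be tested. Within 1 Mb on either side of that stretch, 10 of 47 protein-coding genes were at 0 (21.3%) and 26 were tested. Inside the stretch, HLA-DQA1 and HLA-DQB1 were at 0 as well, with only 11.9% and 7.94% of their windows copied. TUBB, a beta-tubulin gene that dividing cells use and that was named here after its value was seen, lies in the stretch (chr6:30720352-30725426), had 100% of its windows copied and was listed at 0. The zeros of the class I genes are given as listed values, and whether they reflect absent expression was not tested.

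**Figure D2:**
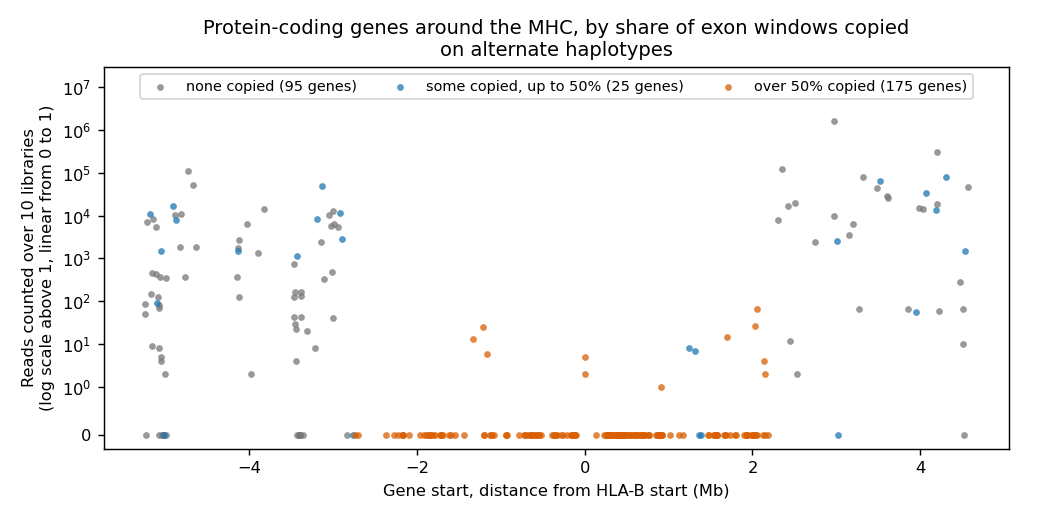
Reads counted over the 10 libraries (vertical axis, log scale above 1) for 295 protein-coding genes around the MHC against distance in Mb from the HLA-B start (lower coordinate). The 175 genes with over 50% of windows copied (orange) sit at 0 in 164 cases and reach 65 reads at most, while genes with no copied window (grey) have a median of 286 reads.

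The same held across the genome. Of the 437 protein-coding genes with every exon window copied on an alternate haplotype, 424 were at 0 (97.03%) and 0 were tested, against 14.3% at 0 among the 12587 genes with no copied window. The shares at 0 were 3.97% for genes with up to 10% of windows copied, 31.1% for those above 10% and up to 50%, and 60.3% for those above 50% and below 100%. The members HLA-E, TAP1, PSMB8 and PSMB9 are among the 437 and NLRC5 is among the 12587. These sets of genes were not matched for kind of gene, and the 437 include olfactory receptor genes such as OR2W1 and OR11A1. The part of the alternate haplotypes in the zeros was not tested, since that takes the reads.

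**Figure D3:**
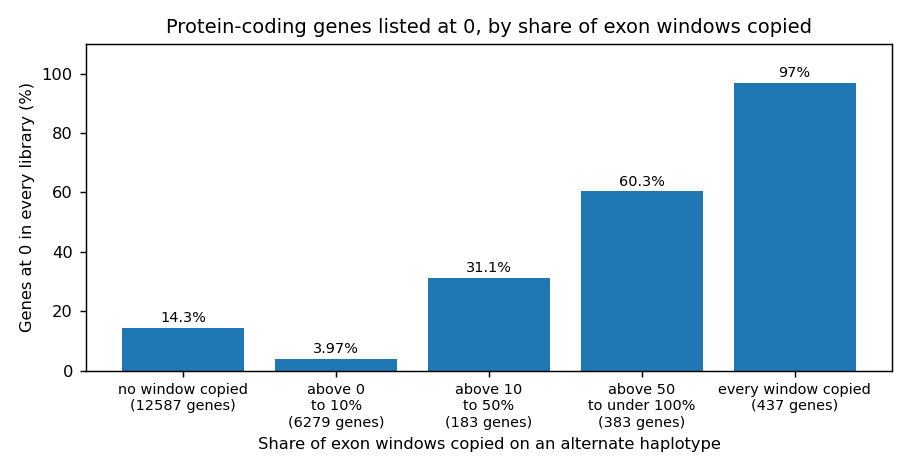
Share of protein-coding genes listed at 0 in all 10 libraries (vertical axis, %) by share of 50-base exon windows copied on an alternate haplotype. Bars stand at 14.3%, 3.97%, 31.1%, 60.3% and 97.03% from no copied window to every window copied.

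Neither of the 2 members that could be tested was called in the edgeR fit (a call needs an adjusted p under 0.05 together with a log2 fold change over 1 or under -1), 0 passed at an unadjusted p of 0.05, and DESeq2 called 0 of them. Over all 19279 genes tested, 7.42% were called higher and 6.49% lower in DNMT1 KO, with a median log2 fold change of -0.07, or 0.14 when library totals alone were used for scaling. The count of members called, 0 of 2, says nothing of the other 7.

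NLRC5 (ENSG00000140853, chr16:56989485-57083531, plus strand) was the only member with no exon window copied on an alternate haplotype. It was at 5.82, 5.46, 6.28, 5.51, 3.92 and 5.48 CPM in HCT116 replicates 1, 2, 3, 7, 8 and 9, and at 5.86, 8.05, 13.2 and 4.59 CPM in DNMT1 KO replicates 1 to 4. DNMT1 KO replicates 2 and 3 were above every HCT116 library, replicates 1 and 4 lay within the HCT116 range, and the groups overlapped. The means were 5.41 ± 0.80 CPM (SD, n = 6) and 7.91 ± 3.78 CPM (SD, n = 4), and the log2 fold change was 0.55 (SE 0.31, 95% interval -0.10 to 1.21, edgeR adjusted p = 0.269). The interval reaches from a slight decrease to a little over a doubling. DNMT1 KO replicate 3 carried much of the difference, and without it the log2 fold change was 0.21 (adjusted p = 0.704). Within batch 1 the log2 ratio of the single pair of libraries (CPM + 0.5) was 0.01, and within batch 2 the ratio of the means was 0.80. The fit on batch 2 alone gave 0.86 (SE 0.41, adjusted p = 0.295), and batches 3 and 4 hold 1 group each.

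B2M (ENSG00000166710, chr15:44711487-44718877, plus strand) had an alternate copy of 91.7% of its exon windows, and where its reads lay was not examined. Its exon windows without an alternate copy lay in 9 short stretches, of which 1 touched the 4 exons of the canonical transcript, and 5 of the 77 windows inside those exons (6.49%) were without a copy. Reads counted were 24, 60, 76, 36, 98 and 66 in HCT116 and 20, 82, 140 and 9 in DNMT1 KO, or 0.501 to 2.03 CPM and 0.313 to 2.22 CPM. The groups overlapped throughout, with the lowest and the highest of the 10 libraries both in DNMT1 KO. The log2 fold change was -0.01 (SE 0.55, 95% interval -1.19 to 1.16, edgeR adjusted p = 0.992), an interval wide enough to hold a doubling or its inverse. Per kilobase of exon B2M stood at 0.190 ± 0.096 RPKM (CPM divided by exon length in kilobases, SD, n = 6) in HCT116, below NLRC5 at 0.437 ± 0.064 RPKM, although B2M is known as one of the most abundant mRNAs of nucleated cells. The length used for B2M was 6079 bases over all its annotated exons, and 77 of its 590 windows lay inside the canonical ones. Its rank against NLRC5 can therefore depend on the length used. The levels of B2M given here are levels of what passed the mapping filter, and the part of copied windows in them was not tested.

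Between HCT116 libraries of batch 4 and those of batches 1 and 2, the fit called 8.03% of 18656 genes in either direction and neither tested member. NLRC5 was at a mean of 4.97 CPM in batch 4 and 5.85 CPM in batches 1 and 2, with a log2 difference of -0.25 (SE 0.36, adjusted p = 0.694). B2M was at 0.929 and 1.38 CPM, with a log2 difference of -0.60 (SE 0.56, adjusted p = 0.534).

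Other genes of the pathway, 67 counted here on 7 lists, were read in the same fit. Of these 45 were tested, 3 were higher and 1 was lower in DNMT1 KO. Over all genes tested, 7.42% were higher and 6.49% lower. Over 50% of the windows were copied in 13 of the 67, of which only the interferon gamma receptor gene IFNGR2 was tested.

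Class I-like heavy chains encoded outside the MHC pair with B2M or fold like its partners, and 3 of them could be tested. FCGRT, which encodes the heavy chain of the neonatal Fc receptor that recycles IgG and albumin, was at 1.55, 0.812, 0.481, 0.571, 1.02 and 0.360 CPM in HCT116 and at 41.9, 29.8, 37.8 and 21.7 CPM in DNMT1 KO. All 4 DNMT1 KO libraries were above all HCT116 libraries, and the log2 fold change was 5.38 (SE 0.40, adjusted p = 3.5e-07). It was called under all 20 alternatives, at log2 fold changes of 5.22 to 5.70. The middle of its coding exon 4 has no stretch within 10 differences on any alternate haplotype, and it is printed to be set beside those of the members above.
FCGRT, coding exon 4, chr19:49514324-49514373: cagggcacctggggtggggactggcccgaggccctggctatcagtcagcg
HFE, whose product pairs with B2M and sets iron uptake through the transferrin receptor, was at 15.8 to 36.4 CPM in HCT116 and at 11.04, 12.5, 7.27 and 6.71 CPM in DNMT1 KO. All 4 DNMT1 KO libraries were below all HCT116 libraries, with a log2 fold change of -1.39 (SE 0.33, adjusted p = 0.0080). The highest HCT116 values of HFE came from batch 4, and with batch as a term the log2 fold change was -0.73 (SE 0.29, adjusted p = 0.105), and in batch 2 alone it was -0.70 (SE 0.40, adjusted p = 0.391). HFE lies on chromosome 6 but outside the MHC stretch above, and 1.65% of its windows were copied. MR1, which presents vitamin B metabolites, was at 12.4 to 60.6 CPM in HCT116 and 12.02 to 54.8 CPM in DNMT1 KO (log2 fold change 0.08, SE 0.48, adjusted p = 0.934). The other 5 genes of this list were not tested, and 4 of them were at 0 in every library. These 4 are HLA-F, HLA-G, MICA and MICB, which lie in the MHC stretch. Of their windows 96.1%, 95.7%, 95.1% and 100% were copied. The remaining gene, CD1D on chromosome 1, had 0% of its windows copied and 32 reads in all.

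**Figure D4:**
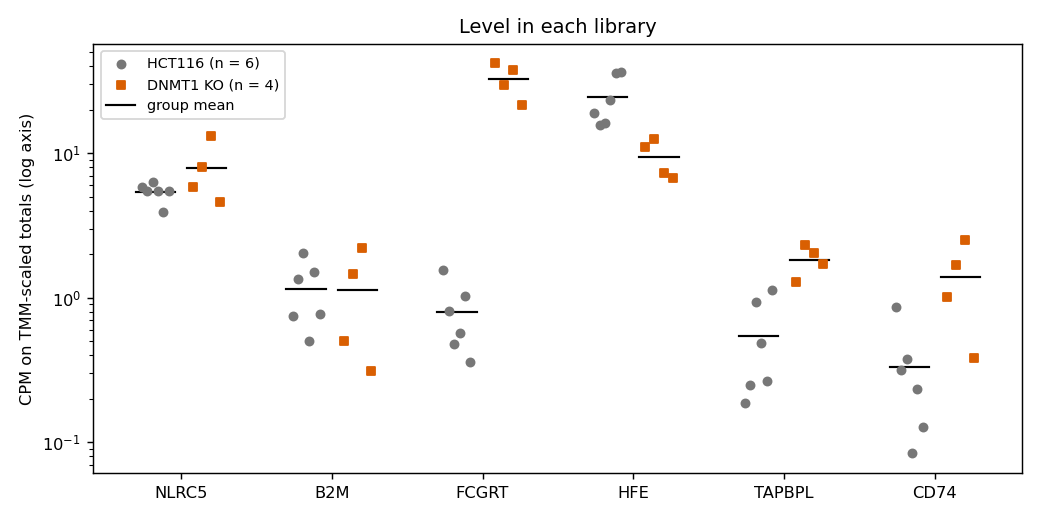
CPM on TMM-scaled totals (log axis) in each HCT116 library (circles, n = 6) and DNMT1 KO library (squares, n = 4) for the tested members NLRC5 and B2M and the called pathway genes. Black lines are group means, and FCGRT, HFE and TAPBPL are the genes whose groups do not overlap.

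In peptide loading and trimming, 6 of 7 genes were tested, 1 was higher and 0 were lower, with a list median log2 fold change of -0.11. TAPBPL, which encodes a tapasin relative that edits class I peptides outside the loading complex, was at 0.186 to 1.13 CPM in HCT116 and 1.29, 2.31, 2.05 and 1.70 CPM in DNMT1 KO. The groups did not overlap, though HCT116 reached close to the lowest DNMT1 KO library (log2 fold change 1.75, SE 0.50, adjusted p = 0.027). The call was lost when any 1 of 5 libraries was left out, at log2 fold changes of 1.60 without HCT116 replicate 8 (adjusted p = 0.056), 1.72 without HCT116 replicate 7 (0.054), 1.62 without DNMT1 KO replicate 2 (0.085), 1.72 without replicate 3 (0.060) and 1.78 without replicate 4 (0.052). TAPBPL shares 11.5% of its exon bases with neighbouring genes. The chaperone genes of the loading complex were abundant and were not called. CALR (calreticulin) was at 596 to 1280 CPM in HCT116 and 647 to 1264 CPM in DNMT1 KO (log2 fold change -0.02, SE 0.28, adjusted p = 0.971), and CANX (calnexin) had a log2 fold change of -0.51 (SE 0.24, adjusted p = 0.180). The trimming peptidase gene ERAP1 was at 46.4 CPM in DNMT1 KO replicate 3 and at 16.9 to 20.1 CPM in the other DNMT1 KO libraries, against 12.1 to 26.7 CPM in HCT116 (log2 fold change 0.47, SE 0.33, adjusted p = 0.394). TAPBP, the gene of tapasin itself, had 100% of its windows copied and 26 reads in all, and was not tested.

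All 8 proteasome genes other than the members were tested and edgeR and DESeq2 called 0 of them, 2 having an unadjusted p under 0.05, with a list median log2 fold change of -0.33. PSME3, a proteasome activator subunit and the gene with the highest mean of the list, was at 237 to 468 CPM in HCT116 and 192 to 305 CPM in DNMT1 KO (log2 fold change -0.23, SE 0.25, adjusted p = 0.603). PSMB5, the standard subunit that PSMB8 replaces, was at 161 to 370 CPM in HCT116 and 143 to 265 CPM in DNMT1 KO (log2 fold change -0.34, SE 0.29, adjusted p = 0.487). PSMB6, which PSMB9 replaces, had a log2 fold change of -0.42 (SE 0.34, adjusted p = 0.461). PSMB10, the immunoproteasome subunit encoded outside the MHC and the counterpart of PSMB7, was at 2.07 to 4.33 CPM in HCT116 and 1.41 to 4.45 CPM in DNMT1 KO (log2 fold change -0.22, SE 0.36, adjusted p = 0.752), and shares 39.4% of its exon bases with an overlapping gene. The log2 ratio of PSMB10 to PSMB7 per kilobase was -5.04 ± 0.50 (SD, n = 6) in HCT116 and -4.77 ± 0.59 (SD, n = 4) in DNMT1 KO, a ratio chosen after the values were seen. The ratios of PSMB8 to PSMB5 and of PSMB9 to PSMB6 could not be formed.

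The factors that act on class I promoters were all tested, and edgeR and DESeq2 called 0 of them, 1 having an unadjusted p under 0.05. They comprise the RFX complex, the NF-Y subunits, CREB1 and ATF1, 8 genes with a list median log2 fold change of 0.04. NFYA, which had the highest mean of the list, was at 64.8 to 81.3 CPM in HCT116 and 61.1 to 105 CPM in DNMT1 KO (log2 fold change 0.10, SE 0.21, adjusted p = 0.813), and RFX5 had a log2 fold change of 0.44 (SE 0.23, adjusted p = 0.236). Of the 5 NF-kappaB subunit genes edgeR and DESeq2 called 0, and 0 had an unadjusted p under 0.05. RELA was at 86.6 to 199 CPM in HCT116 and 126 to 158 CPM in DNMT1 KO.

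Of the 18 genes of interferon input counted here, a pathway that raises NLRC5 and the class I genes, 13 were tested. Of these 13, edgeR and DESeq2 called 0, 1 having an unadjusted p under 0.05. JAK1, a kinase of the interferon receptors and the gene with the highest mean among the 13, was at 59.0 to 196 CPM in HCT116 and 71.2 to 141 CPM in DNMT1 KO (log2 fold change -0.28, SE 0.33, adjusted p = 0.633). IRF9, a subunit of the factor that binds interferon-stimulated response elements, was at 0.402 to 1.71 CPM in HCT116 and 0.707, 2.03, 4.38 and 1.39 CPM in DNMT1 KO, with overlapping groups (log2 fold change 1.04, SE 0.53, adjusted p = 0.222, and 0.42 with adjusted p = 0.681 without DNMT1 KO replicate 3), and shares 45.5% of its exon bases with an overlapping gene. DNMT1 KO replicate 3 was the DNMT1 KO library with the highest IRF9, NLRC5, B2M, CD74 and ERAP1. Among the same libraries TAPBPL and HFE were highest in replicate 2, FCGRT in replicate 1 and IFNAR2 (below) in replicate 4. IFNAR2, a subunit of the type I interferon receptor, passed the p-value threshold but not the fold threshold, at 1.08 to 1.73 CPM in HCT116 and 2.17 to 3.89 CPM in DNMT1 KO (log2 fold change 0.97, SE 0.31, adjusted p = 0.044), and 83.2% of its exon bases are shared with overlapping gene models. IRF1 and IFNGR1 had log2 fold changes of 0.08 and -0.14.

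**Figure D5:**
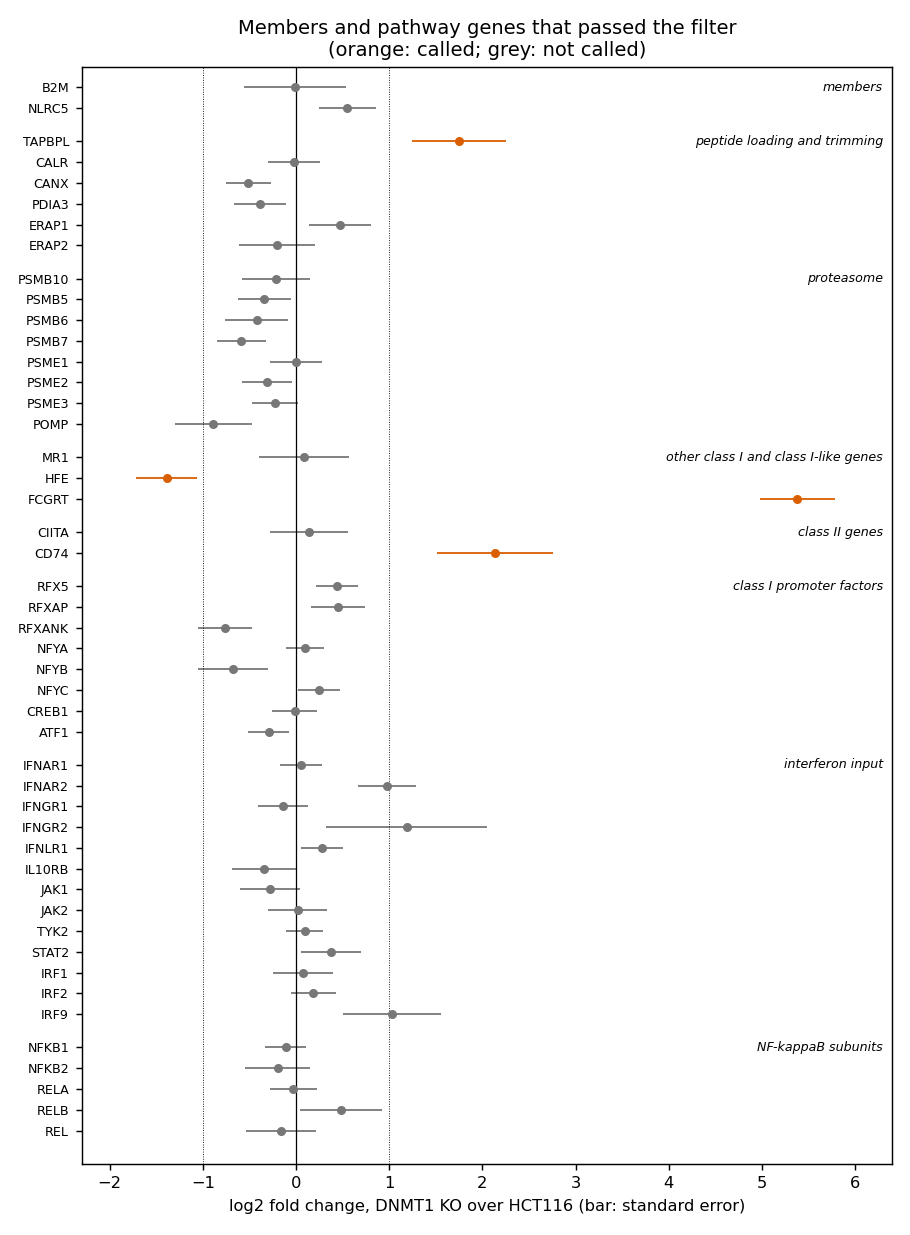
log2 fold change of DNMT1 KO over HCT116 with its standard error for the 2 tested members and the 45 tested pathway genes, grouped by list. Orange marks the 4 called genes (TAPBPL, FCGRT and CD74 higher, HFE lower), and dotted lines stand at -1 and 1.

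Class II genes, most of which lie in the same MHC stretch, had 2 of 13 members tested, and 9 were at 0 in every library. Among the 9, HLA-DQA1 and HLA-DQB1 had only 11.9% and 7.94% of their windows copied. HLA-DRB1 and HLA-DRB5, with 27.3% and 18.6% copied, had 7 and 8 reads in all. CIITA, the class II counterpart of NLRC5, was at 0.496 to 1.86 CPM in HCT116 and 0.783 to 1.17 CPM in DNMT1 KO (log2 fold change 0.14, SE 0.42, adjusted p = 0.866). Per kilobase of exon in HCT116, CIITA stood at 0.045 ± 0.024 RPKM (SD, n = 6), below NLRC5. CD74, the invariant chain gene on chromosome 5, was at 0.0836 to 0.866 CPM in HCT116 and 1.01, 1.69, 2.51 and 0.382 CPM in DNMT1 KO (log2 fold change 2.13, SE 0.62, adjusted p = 0.030). The groups overlapped, and the call was lost without HCT116 replicate 7 (1.92, adjusted p = 0.054), replicate 8 (2.05, 0.062) or replicate 9 (1.96, 0.054) and without DNMT1 KO replicate 2 (2.03, 0.082) or replicate 3 (1.71, 0.115). With batch as a term the log2 fold change of CD74 was 1.81 (SE 0.61, adjusted p = 0.051). In batch 2 alone it was 2.60 (SE 0.58, edgeR adjusted p = 0.038), and the call was kept there. CD74 is a gene of immune cells as well. The part of other cells in the CD74 level was not tested.

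Genes whose start, taken as the lower coordinate, lay within 250 kb of that of a member were read for change over the same loci. Around the 7 MHC members there were 98 other genes, 40 of them protein coding, and 1 was tested. It is USP8P1, a pseudogene related to USP8 that starts 6.8 kb from the HLA-C start, at 0.496 to 1.44 CPM in HCT116 and 0.0711 to 0.190 CPM in DNMT1 KO (log2 fold change -2.90, SE 0.49, adjusted p = 6.7e-04). Of its windows 78.3% were copied on alternate haplotypes, and reads of a pseudogene can belong to its parent gene. Around B2M 4 genes were tested and edgeR called 0, 1 having an unadjusted p under 0.05. Around NLRC5 10 were tested and 1 was higher, where 7.42% of all genes tested were higher. It is SLC12A3, a sodium chloride transporter gene that starts 124 kb from the NLRC5 start (0 to 0.0279 CPM in HCT116, 0.202 to 0.317 CPM in DNMT1 KO, log2 fold change 4.29, SE 0.71, adjusted p = 5.5e-04).

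The 5 tested genes whose levels over the 10 libraries lay nearest to those of NLRC5 were GRIP2, WFDC1, RPL7AP16, MTUS2 and ANKK1. Likeness was the root mean square distance between profiles of log2(CPM + 0.5) centred on the HCT116 mean, and it was 0.18 for GRIP2 and 0.21 for ANKK1. All 5 were highest in DNMT1 KO replicate 3, at 0.857 to 1.92 CPM, and edgeR called 0 of them, 3 having an unadjusted p under 0.05. NLRC5 was highest in that library too, and the 5 were chosen for likeness to it over these same libraries. Their shared peak and p-values follow from that choice and are no separate result.

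RefSeq promoter windows (hg38, 250 bases before to 50 bases after a start) were given for 7 members, 9 windows in all. The interferon-stimulated response element core GAAANNGAA, on either strand, occurred in 4 of the 9, in windows of TAP1, TAP2, PSMB8 and B2M, and in 8.11% of all 35116 windows. The gamma-activated site TTCNNNGAA occurred in 2 of the 9 and in 7.66% of all windows. The CCAAT box occurred in 5 of the 9 against 34.6%, and the cyclic AMP response element core TGACG in 6 of the 9 against 24.6%. CpG dinucleotides numbered 11 to 26 per member window with a median of 22, against a median of 14 over all windows. These are descriptions of sequence, and no reads bear on them here.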

How the data were processed

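The authors trimmed 50-base read pairs from polyA RNA of HCT116 (6 libraries) and DNMT1 KO cells (4), mapped them to hg38 with Bowtie2, removed reads of mapping quality below 10 and deposited raw counts per Ensembl gene from featureCounts over exons. No strand setting is stated for the counting, so overlapping antisense genes cannot be told apart. Low counts (1 to 10) were even in 64.4% to 70.0% of cases in 9 libraries and in 39.9% in DNMT1 KO replicate 4. A further 3 count tables with no listed sample were not used.

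From these counts, edgeR 4.0.16 in R 4.3.3 (TMM, filterByExpr, quasi-likelihood test, two-sided, group as the only term) was fitted to all genes, with Benjamini-Hochberg adjustment over the 19279 tested. Calls took an adjusted p under 0.05 together with a log2 fold change over 1 or under -1. SE is the log2 fold change divided by the root of F. DESeq2 1.42.0 was an alternative. The procedure was tested on simulated data. Symbols came from GENCODE, which matched 58472 of 58884 IDs. Exact copies of exon windows were counted over 25 main, 261 alternate and 169 other hg38 sequences.

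Named genes were all members, up to 4 called genes per pathway list of largest change with a mean of at least 1 CPM (otherwise the most abundant gene of the list), called genes within 250 kb, and the 5 nearest profiles. The profile rule was applied to NLRC5 alone, since 7 members held almost no reads, and some further genes are given as context. Protein sequences were not used here. Of the genes on the lists 2 are not reported here, and counts over their lists leave them out. The members and lists were chosen with earlier results of these data known.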

Additional observations from a re-analysis of the deposited data

Results flagged for a closer look

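Among 24 groups of library values examined (12 genes in each genotype), 2 held a library whose gap to its nearest neighbour was beyond Dixon's 95% critical value, where chance gives about 1.2, or 1 in 20 groups. NLRC5 in HCT116 replicate 8 was at 3.92 CPM, below the 5.46 to 6.28 CPM of the other HCT116 libraries, and leaving that library out moved the log2 fold change of NLRC5 from 0.55 to 0.47. CD74 in HCT116 replicate 1 was at 0.866 CPM, above the other HCT116 libraries.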

How the results depend on the processing

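No member was called higher or lower under any of the 20 alternatives, with 2 of the 9 members tested in each, except for 1 under the filter of 10 counts in every library and 4 with no filter, where HLA-B and HLA-C rested on 5 and 2 reads. NLRC5 kept its direction in all 20 (log2 fold changes 0.21 to 0.86, adjusted p 0.119 to 0.704), and leaving out 1 library at a time gave 0.21 to 0.74. B2M had no stable direction. It was -0.01 in the reported fit, 0.21 with library totals alone, 0.13 in batch 2 alone and -0.56 to 0.28 when 1 library at a time was left out, with adjusted p of 0.613 to 0.999. With replicate numbers 1 to 3 as a replicate block, NLRC5 was 0.55 and B2M -0.08, and 1232 genes were called higher and 1235 lower. Deviations of same-numbered libraries from their group means correlated at 0.55, -0.27 and 0.37. Libraries of different numbers were not compared, so these values cannot decide whether the numbers pair the libraries. Among pathway genes, neither HFE (-0.76, adjusted p = 0.161) nor CD74 (1.79, adjusted p = 0.106) was called in the block, with a batch term over the 10 libraries (-0.73 and 1.81, adjusted p = 0.105 and 0.051) or with a batch term over batches 1 and 2 (-0.73 and 1.81, adjusted p = 0.139 and 0.079), and HFE was not called in batch 2 alone (-0.70, adjusted p = 0.391). TAPBPL was not called in batch 2 alone (1.89, adjusted p = 0.169). The cause of these losses was not tested. Over all genes, library totals alone gave 1878 higher and 956 lower against 1431 and 1251, no filter 1965 and 1547, the filter of 10 counts in every library 734 and 766, batch 2 alone 815 and 798, and DESeq2 1629 and 1447. Log2 fold changes of the 7 MHC genes are given under no setting, since both groups were at or near 0. Summing IDs of the same symbol on alternate haplotypes gave no value, since the tables used hold 0 such IDs. The 7 MHC genes were at or near 0 in libraries of 26700853 to 85991812 reads, and the part of depth was not tested.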

Other observations

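The class I genes were a minor part of the protein-coding genes whose every exon window is copied on an hg38 alternate haplotype. Of the 437 such genes, 108 lay in the MHC stretch of chromosome 6, of which 107 were at 0 in every library, and 329 lay elsewhere, of which 317 were at 0. Chromosome 17 held 69 of them, 66 at 0, chromosome 8 held 38, 35 at 0, chromosome 19 held 30, 29 at 0, and chromosome 1 held 26, all at 0.

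Markers of other lineages moved in DNMT1 KO libraries beside the epithelial ones. Of 7 colorectal epithelium markers tested, EPCAM, KRT8, KRT18 and CDH1 were lower and VIL1 was higher. Of 3 fibroblast markers tested, the most abundant, COL1A1, was not called and was at 2.90 to 14.1 CPM in DNMT1 KO against 6.16 to 19.5 CPM in HCT116 (log2 fold change -0.90, SE 0.42, edgeR adjusted p = 0.183). COL3A1 and PDGFRB were higher, at 1.21 to 8.76 CPM and 2.64 to 5.74 CPM against at most 0.0619 and 0.501 CPM in HCT116. The endothelial genes PECAM1 and VWF were higher as well, at 0.762 to 1.53 CPM and 2.36 to 3.64 CPM against at most 0.279 and 0.681 CPM.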
